A study of Mus musculus with 23 samples.

Results

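Goblet cells are the mucus-secreting cells of the intestinal epithelium, and 8 of their genes are described here in mouse colon: Muc2, Tff3, Fcgbp, Zg16, Agr2, Atoh1, Spdef and Retnlb. They are a list of gene names, and each is represented by the probe set annotated to it alone that had the highest mean over 23 arrays. They are 8 of 18194 genes with such a probe set, and 11 of the 45101 probe sets on the array belong to them. No probe set annotated to several genes named a member.

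The samples were colons of Balb/c mice in 4 groups: FN14 KO mice given TNBS (KO TNBS, n = 7), Wild Type mice given TNBS (WT TNBS, n = 6), untreated FN14 KO mice (KO, n = 5) and untreated Wild Type mice (WT, n = 5). Fn14, the receptor of the cytokine TWEAK, is encoded by Tnfrsf12a, and the labels give no further detail of the allele. TNBS is a hapten that provokes colitis. It was given rectally as a 0.2% solution in PBS and ethanol over 6 weeks, in doses that climbed in steps between 1.0 and 2.0 ul per g body weight, and tissue was collected 3 days after the final dose. Age and sex are not given in the labels, nor whether the untreated mice received the solvent, nor whether each sample is a mouse of its own, so the p-values speak only of the spread among these 23 arrays, which may be partly technical.

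Colonic goblet cells secrete the gel-forming mucin MUC2, which folds and assembles in the endoplasmic reticulum with the help of AGR2. Other secreted proteins, among them FCGBP, ZG16 and the trefoil peptide TFF3, are part of the mucus layer. The transcription factor ATOH1 commits epithelial progenitors to the secretory fate, against Notch signalling, and SPDEF acts after it in goblet cell maturation. RELM-beta, the product of Retnlb, is a cysteine-rich protein that goblet cells secrete into the lumen and that type 2 cytokines such as IL-13 are known to induce.

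The values are log2 expression values deposited by the authors, from 2.17 to 15.98, and a log2 difference of 1 is a 2-fold difference. Arrays of a group correlated at r = 0.989 to 0.998 over all genes, and Tnfrsf12a read 3.84 to 4.17 on the 12 FN14 KO arrays and 5.86 to 8.25 on the 11 Wild Type arrays. It is not known here whether the deletion removes the target of its probe set. The lowest value of any member on any array was 9.24, for Atoh1, so all 8 genes were read far above the lowest value. The mean of 9 markers of squamous epithelium, which lines the anal canal, ran from 4.04 to 7.92 in KO TNBS, 4.38 to 6.71 in WT TNBS, 2.73 to 5.74 in KO and 2.49 to 4.46 in WT arrays. For 8 skeletal muscle markers it ran from 4.82 to 7.90, 3.22 to 6.44, 5.18 to 7.95 and 2.98 to 4.65 in the same groups, with Myh4 at the lowest value on every Wild Type array. Both lists therefore moved with groups compared here. Where either as a covariate changed a member's call, that value is given beside the result. In whole tissue, fewer cells of a type and less RNA per cell cannot be told apart.

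In each of the 4 comparisons between groups Retnlb was the member with the largest difference. It rose with TNBS by nearly the same measured amount in both genotypes, and it was lower in FN14 KO than in Wild Type colon with TNBS as well as without. Its values were 12.15, 12.63 and 12.93 (lowest, median, highest) in KO TNBS and 13.27, 13.43 and 13.59 in WT TNBS colon. They were 10.45, 10.69, 10.76, 11.39 and 10.77 in the KO arrays and 11.39, 11.15, 12.09, 11.85 and 11.71 in the WT arrays. The 4 groups thus stood in the order WT TNBS, KO TNBS, WT and KO. Neighbours in that order did not overlap, apart from WT and KO, where the highest KO array stood above the lowest WT array.

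**Figure D1:**
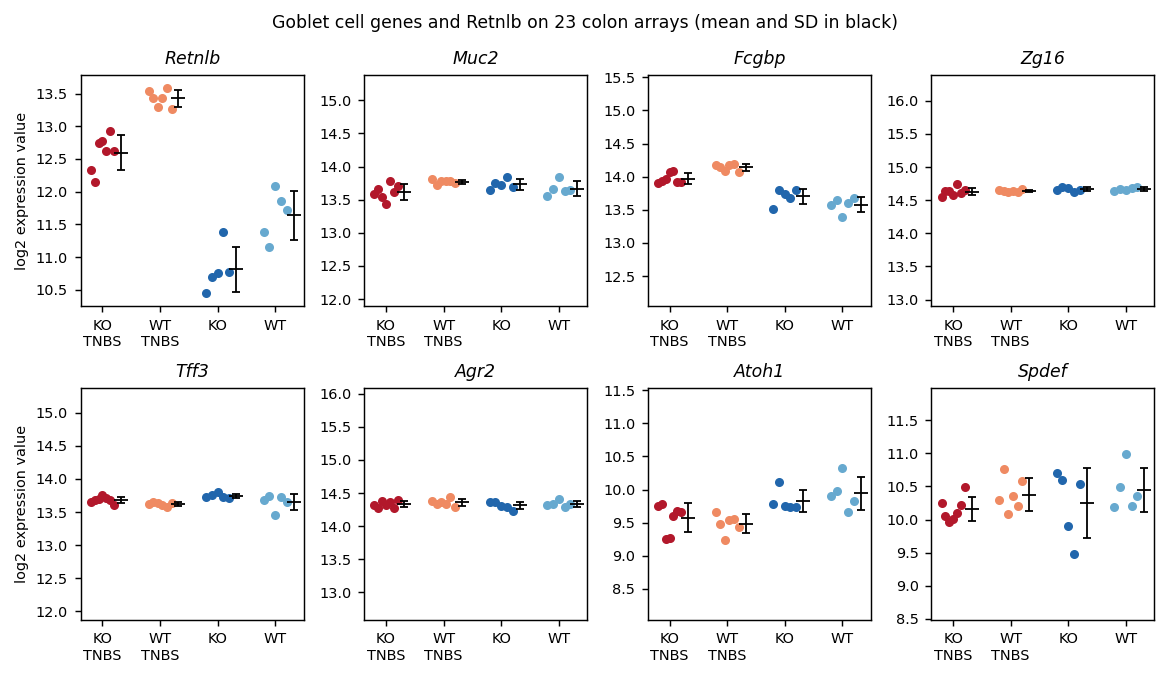
Log2 expression values of Retnlb and the 7 other genes on 23 arrays, 1 point per array, in KO TNBS, WT TNBS, KO and WT colon, with the group mean and SD in black. All panels have nearly the same span around their own middle. Retnlb has the widest spaced groups, with means of 12.59, 13.43, 10.81 and 11.64, while Muc2, Zg16, Tff3 and Agr2 lie nearly flat.

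The TNBS effect on Retnlb was 1.78 ± 0.17 (log2 difference ± SE) in FN14 KO mice, a 3.44-fold rise with a 95% interval of 2.71 to 4.37, and its groups did not overlap (adjusted p = 1.3e-06). In Wild Type mice it was 1.79 ± 0.17, a 3.45-fold rise with an interval of 2.70 to 4.42 (adjusted p = 8.3e-07), again without overlap. By size it was 73rd of the 743 genes that rose with TNBS in FN14 KO and 134th of the 1858 that rose in Wild Type colon. The difference between the genotypes' TNBS effects was -0.01 ± 0.24, with a 95% interval of -0.50 to 0.49 (adjusted p = 1). That interval leaves room for TNBS effects that differ by up to 1.42-fold.

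Between genotypes, Retnlb was lower in FN14 KO colon by a like amount in both states. With TNBS the log2 difference was -0.83 ± 0.16, a 1.78-fold lower level (interval 1.42 to 2.23), and all 7 KO TNBS arrays lay below all 6 WT TNBS arrays (adjusted p = 0.0021). Without TNBS it was -0.83 ± 0.18, a 1.77-fold lower level (interval 1.37 to 2.30), with the overlap named above (adjusted p = 0.0117). KO TNBS arrays read 12.59 ± 0.27 (SD, n = 7), and KO arrays read 10.81 ± 0.35 (n = 5), against 13.43 ± 0.13 (n = 6) in WT TNBS and 11.64 ± 0.37 (n = 5) in WT arrays. Other cell markers moved with these groups. The mean of 5 leukocyte markers stood in the same group order as Retnlb, with ranges of 7.48 to 8.15 in KO TNBS, 8.16 to 8.41 in WT TNBS, 7.11 to 7.64 in KO and 7.57 to 7.77 in WT colon, and Itgam among them stayed near the lowest value, with group means of 2.17 to 2.18. Within groups its deviations had r = -0.17 with those of Retnlb over the 23 arrays, and its part in the result was not tested. Skeletal muscle markers also differed between genotypes. With their mean as a covariate the genotype difference of Retnlb was -0.87 with TNBS (adjusted p = 0.0099) and -0.88 without (adjusted p = 0.118, no longer past the threshold). When only KO and WT arrays were fitted, the untreated difference also missed the threshold (-0.83, adjusted p = 0.103).

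Retnlb has relatives that serve as a comparison. Retnla, which encodes RELM-alpha, a product of alternatively activated macrophages and other cells, read 9.40, 9.79 and 10.69 in KO TNBS and 10.28, 11.46 and 12.27 in WT TNBS colon (lowest, median, highest). It averaged 8.56 ± 0.25 in KO and 8.55 ± 0.30 in WT colon (SD, n = 5 each), a difference of 0.01 ± 0.30 (adjusted p = 1). With TNBS its genotype difference was -1.49 ± 0.26 (adjusted p = 0.0013). The test of the difference between its TNBS effects did not pass (-1.50, adjusted p = 0.0566). Retn, the gene of resistin, a fat cell hormone, varied between 6.87 and 10.10 with no contrast past the threshold. Whether transcripts of Retnla hybridise to the Retnlb probe set was not tested. Retnlg was not analysed here.

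Of the mucus proteins, Fcgbp rose with TNBS in both genotypes. It encodes a large secreted protein of von Willebrand D domains that is a main component of colonic mucus. Its values were 13.90, 13.94 and 14.08 in KO TNBS and 14.07, 14.16 and 14.20 in WT TNBS colon (lowest, median, highest). They were 13.51, 13.80, 13.73, 13.67 and 13.80 in KO and 13.58, 13.65, 13.39, 13.61 and 13.67 in WT arrays. In each genotype all TNBS arrays stood above all untreated arrays. The rise was 0.27 ± 0.05 in FN14 KO colon, or 1.20-fold (interval 1.12 to 1.30, adjusted p = 0.0041). In Wild Type colon it was 0.56 ± 0.05, or 1.48-fold (interval 1.36 to 1.60, adjusted p = 9.7e-07). Both rises passed under all 35 alternative settings.

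The smaller rise in the FN14 KO was near the threshold. Tested directly, the TNBS effects on Fcgbp differed by -0.29 ± 0.08 (interval -0.45 to -0.14, adjusted p = 0.0497), and this call was lost under 26 of 34 alternatives, with adjusted p from 0.016 to 0.253 over them. Fcgbp was also lower in KO TNBS (13.97 ± 0.08, SD, n = 7) than in WT TNBS colon (14.14 ± 0.05, n = 6), at -0.17 ± 0.05 (adjusted p = 0.0334), where the groups overlapped and 12 of 35 alternatives ended the call. Leaving out any of 8 single arrays (WT TNBS 1, 4 or 5, or KO TNBS 1, 2, 3, 6 or 7) was enough to end it, with adjusted p from 0.0517 to 0.0752. With the skeletal muscle mean as a covariate this difference was -0.18 (adjusted p = 0.0856) and that of the TNBS effects -0.29 (adjusted p = 0.0787), and with the squamous mean they were -0.17 (adjusted p = 0.0423) and -0.29 (adjusted p = 0.0507). Without TNBS the difference was 0.12 ± 0.06 (KO minus WT, adjusted p = 0.246).

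Muc2, the gel-forming mucin itself, did not pass in any comparison before alternative settings were tried. It read 13.43, 13.62 and 13.78 in KO TNBS and 13.72, 13.77 and 13.81 in WT TNBS colon (lowest, median, highest). The KO arrays read 13.64, 13.76, 13.72, 13.85 and 13.69, and the WT arrays 13.56, 13.67, 13.85, 13.63 and 13.64, so all 4 groups overlapped. The TNBS effect was -0.11 in FN14 KO (interval -0.22 to -0.01, adjusted p = 0.2) and 0.10 in Wild Type colon (interval -0.01 to 0.21, adjusted p = 0.246). With the squamous marker mean as a covariate the effect in Wild Type was 0.20 and passed (adjusted p = 0.0238). Without covariates the intervals reach no further than a 1.17-fold lower level in FN14 KO and a 1.16-fold higher level in Wild Type colon. Between the genotypes with TNBS its difference was -0.15 ± 0.05 (adjusted p = 0.0567), which 5 of 35 alternatives brought past the threshold, with adjusted p from 0.021 to 0.479 over all of them. With the squamous covariate it was -0.13 (adjusted p = 0.0419), and with the mean of epithelial markers as a covariate -0.18 (adjusted p = 0.0339). Settings without a covariate passed too: quantile normalization (-0.16, adjusted p = 0.0455) and leaving out WT replicate 3 (-0.15, adjusted p = 0.0317). Leaving out KO TNBS replicate 5 gave -0.18 (adjusted p = 0.0212).

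Zg16 and Tff3 did not pass in any comparison by their main probe sets before alternative settings were tried. Zg16 encodes a lectin-like mucus protein that binds Gram-positive bacteria. It averaged 14.63 ± 0.06 in KO TNBS (n = 7), 14.64 ± 0.02 in WT TNBS (n = 6), 14.66 ± 0.03 in KO and 14.67 ± 0.02 in WT colon (SD, n = 5 each), and its TNBS effects were -0.03 in both genotypes, with intervals no lower than -0.08. Its other probe sets did not fully share this. One of them differed by -0.09 ± 0.03 with TNBS in Wild Type (adjusted p = 0.033 over all probe sets), and the other by -0.28 ± 0.07 between untreated KO and WT colon (adjusted p = 0.0289). The mean of the 3 probe sets differed by -0.10 with TNBS in Wild Type (adjusted p = 0.027). Tff3, the trefoil peptide of intestinal repair, averaged 13.68 ± 0.05 in KO TNBS (n = 7), 13.62 ± 0.03 in WT TNBS (n = 6), 13.74 ± 0.04 in KO and 13.65 ± 0.12 in WT colon (n = 5 each). Its TNBS effects were -0.06 (interval -0.14 to 0.02) in FN14 KO and -0.03 (interval -0.11 to 0.05) in Wild Type colon. Without WT replicate 3 the effect in Wild Type was -0.08 and passed (adjusted p = 0.0461).

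Agr2, the disulfide isomerase that mucin assembly needs, did not pass either. It averaged 14.33 ± 0.05 in KO TNBS (n = 7), 14.36 ± 0.05 in WT TNBS (n = 6), 14.31 ± 0.06 in KO and 14.34 ± 0.05 in WT colon (SD, n = 5 each). Its TNBS effect was 0.02 in both genotypes, with intervals of -0.04 to 0.08, and its second probe set passed in no comparison. Values this high leave little of the measured range above them, and how far scanner saturation compresses them was not tested. Zg16 read higher still, and the group means of Fcgbp, Muc2 and Tff3 lay between 13.58 and 14.14. The same limit holds for the differences and intervals given for these genes.

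**Figure D2:**
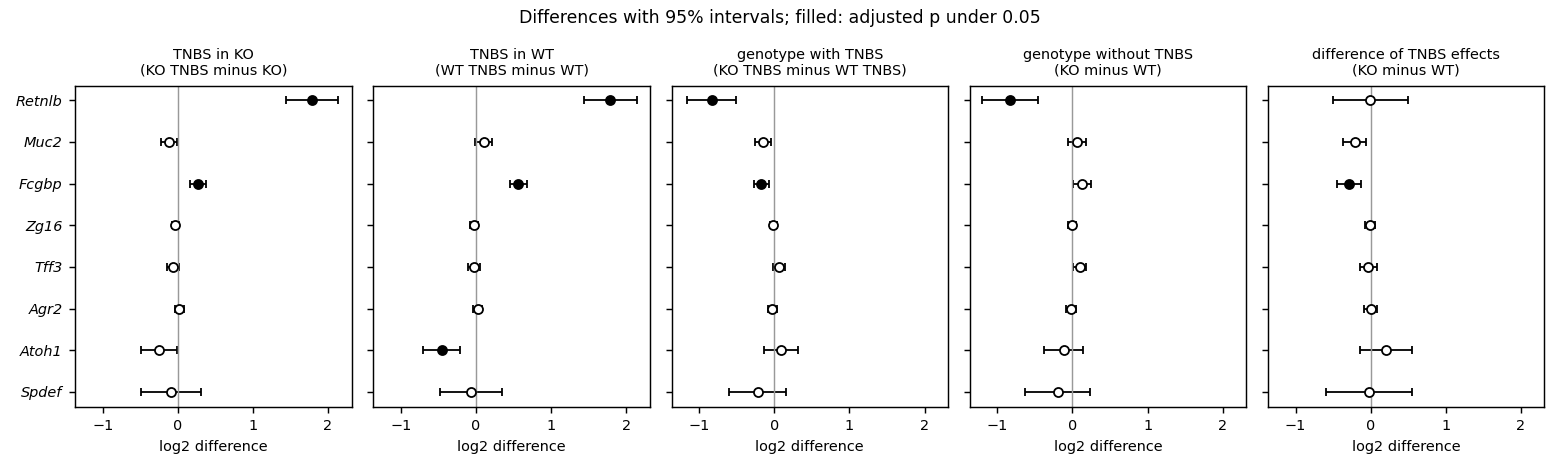
Log2 differences of the 8 genes in 5 comparisons, with 95% intervals; filled points passed an adjusted p of 0.05 over all genes and open points did not. Retnlb and Fcgbp are right of 0 in both TNBS comparisons, Retnlb is left of 0 in both genotype comparisons, and its difference of TNBS effects is centred at -0.01.

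Of the transcription factors, Atoh1 fell with TNBS in Wild Type colon and did not pass in FN14 KO colon. It read 9.26, 9.66 and 9.78 in KO TNBS and 9.24, 9.51 and 9.67 in WT TNBS colon (lowest, median, highest), against 9.78, 10.11, 9.75, 9.73 and 9.74 in KO and 9.90, 9.98, 10.33, 9.67 and 9.83 in WT arrays. In FN14 KO colon the difference with TNBS was -0.25 ± 0.11 (adjusted p = 0.198). In Wild Type it fell by 0.46 ± 0.12, to a 1.37-fold lower level (interval 1.16 to 1.63, adjusted p = 0.0114), with 1 WT TNBS array just above the lowest WT array, and tested directly the TNBS effects differed by 0.21 ± 0.16, which did not pass (adjusted p = 0.634). Squamous markers moved with TNBS as well. With their mean as a covariate the difference in Wild Type was -0.36 (adjusted p = 0.135), and with the mean of 11 epithelial markers it was -0.37 (adjusted p = 0.138), so either ended the call.

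Spdef did not pass in any comparison. It read 9.96, 10.10 and 10.49 in KO TNBS and 10.08, 10.32 and 10.76 in WT TNBS colon (lowest, median, highest), and 10.71, 10.60, 9.91, 9.48 and 10.54 in KO and 10.19, 10.49, 11.00, 10.20 and 10.35 in WT arrays. All 4 groups overlapped. The TNBS effect was -0.09 in FN14 KO (interval -0.49 to 0.31) and -0.07 in Wild Type colon (interval -0.48 to 0.34), and both intervals reach to a 1.40-fold lower level.

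Promoter sequence, from RefSeq on GRCm38.p6, was at hand for 5 of the 8 genes (Muc2, Fcgbp, Spdef, Agr2 and Atoh1). Shown are the 250 bases before the start of Fcgbp and Atoh1, 2 members with called TNBS differences, and of Muc2, which had none. Capitals mark the E-box CAGCTG, a core that ATOH1-type basic helix-loop-helix factors can bind.
Fcgbp (chr7:28070986-28071235, + strand): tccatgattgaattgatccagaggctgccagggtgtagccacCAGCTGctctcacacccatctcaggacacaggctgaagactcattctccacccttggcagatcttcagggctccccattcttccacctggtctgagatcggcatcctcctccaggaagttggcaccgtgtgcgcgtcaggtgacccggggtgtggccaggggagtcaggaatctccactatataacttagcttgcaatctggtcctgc
Atoh1 (chr6:64728875-64729124, + strand): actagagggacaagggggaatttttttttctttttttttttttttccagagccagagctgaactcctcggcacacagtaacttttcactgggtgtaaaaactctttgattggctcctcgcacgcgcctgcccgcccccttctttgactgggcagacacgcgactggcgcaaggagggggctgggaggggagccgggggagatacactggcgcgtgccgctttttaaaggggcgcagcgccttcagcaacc
Muc2 (chr7:141690090-141690339, + strand): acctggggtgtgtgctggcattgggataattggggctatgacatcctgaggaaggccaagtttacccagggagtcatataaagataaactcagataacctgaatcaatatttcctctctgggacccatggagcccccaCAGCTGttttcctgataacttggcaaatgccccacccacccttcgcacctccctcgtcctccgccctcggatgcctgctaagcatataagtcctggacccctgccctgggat
The motif begins 208 bases before the start of Fcgbp and 112 bases before that of Muc2. It was absent from the windows of Atoh1, Spdef and Agr2. Over all 32851 windows of this length, 13% held CAGCTG and 14.4% held CAGATG (both strands searched), which no member's window held.

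Counted together, 2 of the 8 genes passed with TNBS in FN14 KO colon, Retnlb and Fcgbp, which both rose, where 8.55% of all genes passed (4.08% rose and 4.47% fell). With TNBS in Wild Type colon 3 of 8 passed, against 16.5% of all genes (10.2% rose and 6.27% fell): Retnlb and Fcgbp rose, and Atoh1 fell. Between genotypes 2 of 8 were lower in FN14 KO colon with TNBS (10.5% of all genes passed there, 3.73% higher and 6.72% lower), again Retnlb and Fcgbp, and 1 of 8 without TNBS, Retnlb (4.83% of all genes, 2.92% higher and 1.91% lower). For the difference of TNBS effects it was 1 of 8, Fcgbp, against 2% of all genes (0.621% higher and 1.37% lower). Groups did not overlap for 2 of 8 genes with TNBS in FN14 KO (3.87% of all genes), 2 of 8 in Wild Type (10.1%), 1 of 8 between genotypes with TNBS (3.63%) and 0 of 8 without (5.56%). The median difference over the 8 genes was -0.05 with TNBS in FN14 KO, -0.00 in Wild Type, -0.09 between genotypes with TNBS and -0.01 without, beside 0 over all genes in each case. The comparisons share groups, so the same arrays stand behind several of these counts. The members were also chosen with earlier results of these data known. All genes include 2623 at the lowest value on all arrays, while every member was read far above it. The counts are therefore descriptions, not a test of the members against all genes.

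A longer list of 27 other goblet cell genes was described in the same way. Of all genes 8.55% passed with TNBS in FN14 KO and 16.5% in Wild Type colon. Between genotypes 10.5% passed with TNBS and 4.83% without. With TNBS 6 rose, 1 fell and 20 did not pass in FN14 KO colon (median 0.07), and 9 rose, 2 fell and 16 did not pass in Wild Type colon (median 0.15). The largest rises were of Ang4, an angiogenin-family antimicrobial protein (4.12 ± 0.30 in FN14 KO and 3.28 ± 0.31 in Wild Type), and Itln1, the lectin intelectin 1 (3.23 ± 0.38 and 3.36 ± 0.40). Both have close relatives in the genome, and whether their probe sets read those too was not tested. Spink4, a secreted peptide of goblet cells, rose by 0.39 ± 0.05 in FN14 KO and 0.56 ± 0.05 in Wild Type colon, and Reg4, a lectin of deep crypt secretory cells, by 0.52 ± 0.08 and 0.82 ± 0.08. Capn9, a calpain of the digestive tract, rose by 0.29 ± 0.09 and 0.97 ± 0.09, and its TNBS effects differed between genotypes (-0.68, adjusted p = 0.0081).

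With TNBS 1 of the 27 fell in FN14 KO and 2 of 27 in Wild Type colon, where 4.47% and 6.27% of all genes fell. Nlrp6, an inflammasome sensor studied in mucus secretion, differed by -0.08 ± 0.12 with TNBS in FN14 KO (adjusted p = 0.857). In Wild Type colon it fell by 0.57 ± 0.12 (adjusted p = 0.0025). Tested directly, these TNBS effects differed by 0.50 ± 0.17, which did not pass (adjusted p = 0.1275). Foxa1, a forkhead factor, fell by 0.23 ± 0.05 in Wild Type. Mep1b, a meprin subunit that cleaves MUC2, fell by 0.41 ± 0.09 in FN14 KO colon (adjusted p = 0.0109). The difference of TNBS effects did not pass for Foxa1 (0.15, adjusted p = 0.301) or Mep1b (-0.22, adjusted p = 0.492). Between genotypes with TNBS 1 gene was higher and 4 lower in FN14 KO, and 22 did not pass. Nlrp6 was the higher one (0.49 ± 0.11), and Itln1 (-1.39 ± 0.36), Capn9 (-0.51 ± 0.08), Tpsg1 (-0.43 ± 0.11) and Spink4 (-0.19 ± 0.04) the lower ones. Without TNBS 1 of 27 passed, Ang4 (-1.21 ± 0.33, adjusted p = 0.0382), while Itln1 read -1.25 ± 0.41 (adjusted p = 0.086). Ang4 did not pass between the genotypes with TNBS (-0.37, adjusted p = 0.503), where Retnlb did.

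**Figure D3:**
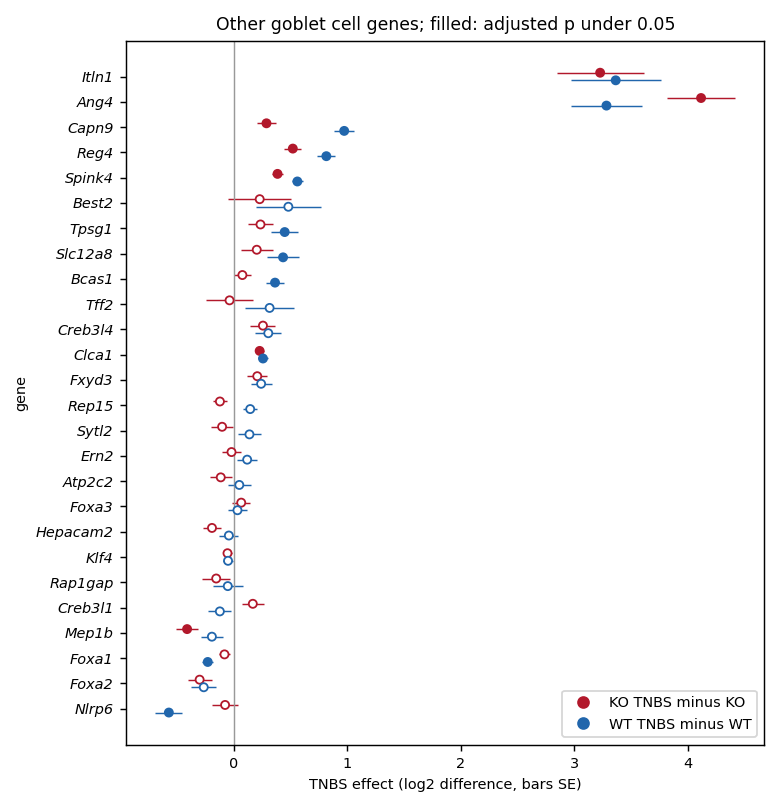
TNBS effects (log2 difference, bars SE) on 26 other goblet cell genes in FN14 KO (red, upper point) and Wild Type colon (blue, lower point), ordered by the Wild Type value. Filled points passed an adjusted p of 0.05. Itln1 and Ang4 stand apart at 3.23 to 4.12, and the other genes lie between -0.57 and 0.97. Tff1, at the lowest value on all arrays, is not drawn.

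Other mucins and the enzymes of mucin glycosylation were counted next. Over all genes 8.55% passed with TNBS in FN14 KO and 16.5% in Wild Type, and between genotypes 10.5% with TNBS and 4.83% without. Of 8 measured mucin genes 1 fell with TNBS in FN14 KO, and 1 rose and 1 fell in Wild Type colon. Muc13, a membrane mucin, fell by 0.21 ± 0.05 in FN14 KO and by 0.38 ± 0.06 in Wild Type. Muc20 rose by 0.64 ± 0.19 in Wild Type at low signal. Muc1 was higher in KO TNBS than in WT TNBS colon by 0.58 ± 0.16 (adjusted p = 0.022), and Muc5ac, the gastric mucin, was at the lowest value on all arrays. Of 15 glycosylation enzymes 1 passed with TNBS in FN14 KO colon, Galnt7, which fell by 0.30 ± 0.08. In Wild Type 1 rose, 2 fell and 12 did not pass. There the sulfotransferase gene Gal3st2 rose by 0.86 ± 0.15, and the GalNAc-transferase genes Galnt4 and Galnt7 fell by 0.30 ± 0.06 and 0.35 ± 0.08. In limma 0 of 15 passed between the genotypes, with 2 at an unadjusted p under 0.05 with TNBS and 1 without.

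Genes that steer the secretory fate were tested beside Atoh1. The share of all genes that passed was 8.55% with TNBS in FN14 KO and 16.5% in Wild Type. Of 10 genes of Notch signalling and secretory fate 0 passed with TNBS in FN14 KO in limma (1 at an unadjusted p under 0.05), and 1 rose and 1 fell in Wild Type. Rbpj, the DNA-binding partner of the Notch intracellular domain, differed by -0.00 ± 0.06 with TNBS in FN14 KO and rose by 0.41 ± 0.06 in Wild Type, and these effects differed (-0.42, adjusted p = 0.0146). Hes1, the Notch target that represses Atoh1, fell by 0.52 ± 0.12 in Wild Type colon (adjusted p = 0.0067). In FN14 KO it differed by -0.11 ± 0.12 (adjusted p = 0.701), and the difference of its TNBS effects did not pass (0.41, adjusted p = 0.244).

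Type 2 cytokines, known inducers of Retnlb, and their receptors were measured only in part. Il5, Il13 and Il25 were at the lowest value on all arrays, so no difference in them was detectable. Of 12 genes 1 rose with TNBS in FN14 KO and 6 in Wild Type colon, where 4.08% and 10.2% of all genes rose. Il13ra2, a decoy receptor of IL-13, rose by 1.34 ± 0.29 in FN14 KO and 2.06 ± 0.30 in Wild Type. Il4ra, the receptor subunit shared by IL-4 and IL-13, averaged 7.07 in KO TNBS and 7.67 in WT TNBS colon, a difference of -0.60 ± 0.12 (adjusted p = 0.003). Without TNBS it averaged 6.84 in KO and 6.86 in WT colon (-0.02 ± 0.14, adjusted p = 1). The part of these genes in the level of Retnlb was not tested. Il33, an epithelial and stromal alarmin, differed by 0.45 ± 0.20 with TNBS in FN14 KO (adjusted p = 0.189) and rose by 0.97 ± 0.21 in Wild Type. Tested directly, these effects differed by -0.53 ± 0.29, which did not pass (adjusted p = 0.401). Between KO TNBS and WT TNBS colon Il33 did not pass either (-0.54 ± 0.19, adjusted p = 0.0787).

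Folding factors of the secretory pathway were compared as well. Over all genes 6.72% were lower in KO TNBS than in WT TNBS colon and 1.91% lower in KO than in WT. With TNBS 4.08% rose in FN14 KO and 10.2% in Wild Type. Of 11 genes 5 were lower in KO TNBS than in WT TNBS colon, among them the protein disulfide isomerase genes Pdia4 (-0.74 ± 0.20), Pdia6 (-0.40 ± 0.12) and the chaperone gene Hsp90b1 (-0.33 ± 0.09). Pdia4 was lower in KO than in WT colon without TNBS too (-0.79 ± 0.22, adjusted p = 0.0462). With TNBS 2 of 11 rose in FN14 KO and 3 in Wild Type, and Edem1, of the disposal of misfolded proteins, rose in both (0.31 ± 0.06 in FN14 KO and 0.47 ± 0.07 in Wild Type).

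The epithelium as a whole gave a frame for these values. The mean of 11 epithelial markers was 12.60 ± 0.06 in KO TNBS (n = 7), 12.57 ± 0.05 in WT TNBS (n = 6), 12.68 ± 0.02 in KO and 12.65 ± 0.03 in WT colon (SD, n = 5 each). With it as a covariate the TNBS effect on Retnlb was 1.89 in FN14 KO and 1.92 in Wild Type. Cell type markers were counted beside all genes, of which 4.08% rose and 4.47% fell with TNBS in FN14 KO. In Wild Type 10.2% of all genes rose and 6.27% fell, and 2.92% were higher in KO than in WT colon. Of the 11 epithelial markers 1 fell with TNBS in FN14 KO colon, Epcam (-0.12 ± 0.03). In Wild Type 1 rose, Krt18 (0.36 ± 0.04), and 2 fell, Elf3 (-0.50 ± 0.10) and Cdx1 (-0.28 ± 0.08). Their mean thus joins markers that moved in opposite directions. Absorptive colonocyte markers fell in 3 of 10 cases in FN14 KO and 2 of 10 in Wild Type colon, and enteroendocrine markers in 0 of 7 and 4 of 7 in limma (1 of the 7 in FN14 KO had an unadjusted p under 0.05). Tuft cell markers rose in 1 of 6 cases in each genotype and Paneth cell markers in 1 of 3, which was Itln1. The gene of the tuft list that rose was Alox5ap (1.00 ± 0.19 in FN14 KO and 1.83 ± 0.19 in Wild Type). Whether tuft cells were its source in whole tissue was not tested. Dclk1 and Trpm5 did not pass, and Pou2f3 was at the lowest value on all arrays. Leukocyte markers rose in 3 of 5 cases in each, and smooth muscle markers in 0 of 6 in FN14 KO (0 also at an unadjusted p under 0.05 in limma) and 1 of 6 in Wild Type colon. Squamous markers rose in 2 of 9 cases in FN14 KO and 3 of 9 in Wild Type. Skeletal muscle markers rose in 0 of 8 in both in limma (0 in FN14 KO and 1 in Wild Type at an unadjusted p under 0.05). Without TNBS 2 of 8 skeletal muscle markers and 2 of 10 colonocyte markers were higher in KO than in WT colon. The colonocyte markers were Slc26a3 (0.21 ± 0.06) and Car4 (0.29 ± 0.08). With the squamous mean as a covariate the TNBS effect on Retnlb was 1.93 in either genotype.

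Within groups the 8 genes did not vary as a block. Over the 23 deviations from the group means, Pearson's r between pairs of members ran from -0.58, for Tff3 and Atoh1, to 0.59, for Muc2 and Atoh1. Retnlb had r between -0.36 and 0.33 with the other 7. Among 10775 other genes with a mean of at least 5, the 5 whose deviations were most like those of Retnlb were Trafd1 (r = 0.82, Spearman's rho = 0.79), Irf9 (0.82 and 0.76), Parp9 (0.79 and 0.77), Rtp4 (0.78 and 0.76) and Zbp1 (0.77 and 0.69). Without the 2 arrays farthest from the median in Retnlb, r was 0.69 to 0.75 for these genes. Those most like Muc2 were Atp2a3 (r = 0.84, rho = 0.78), Slc4a2 (0.77 and 0.62), Nuak2 (0.76 and 0.80), Diras2 (0.75 and 0.58) and Itga7 (0.75 and 0.70), with r of 0.57 to 0.82 without the 2 arrays farthest in Muc2. These are descriptions of arrays that share their normalization, picked as the highest of many.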

How the data were processed

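Each sample is total RNA of colon on 1 biotin-labelled Affymetrix array, per the labels' protocols. The authors deposited log2 values for 45101 probe sets. RMA and GCRMA are both named in the submitters' processing notes. The sources used here do not give which one made the values, nor a version. Of all values 31.6% lie within 0.01 of the lowest, so differences of genes there are understated. Gene names came from a 2016 platform annotation (34958 with 1 gene, 932 with several, 9211 unnamed), and 34754 were matched to RefSeq genes of GRCm38.p6.

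The values were used without further normalization. A mean per group was fitted over 23 arrays in limma 3.58.1 (R 4.3.3), with 19 residual degrees of freedom, and every adjusted p is limma's, Benjamini-Hochberg adjusted over 18194 genes with a threshold of 0.05 unless stated otherwise. The fit was tested on simulated data. Figures used matplotlib 3.10.9. The members and the gene lists were chosen with earlier results of these data known. Genes named are the members, up to 4 called genes of a list per direction with the smallest p, and the 5 most like Retnlb and Muc2. Genes that did not pass are given where they stand beside these, and Retn, Itgam, Myh4 and the genes at the lowest value were named after their values were seen. The number of arrays limits the precision. The alternatives were other scalings, filters, probe set rules, covariates, a replicate block and each array left out.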

Additional observations from a re-analysis of the deposited data

Results flagged for a closer look

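Atoh1 in KO replicate 2 read 10.11, the highest of the 5 KO arrays, with the nearest at 9.78. That gap is 0.88 of the range of the group. It was 1 of 32 groups of member values examined, and chance alone marks about 1 in 20.

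The TNBS effect on Fcgbp was smaller in FN14 KO than in Wild Type colon, with a tested difference of -0.29 (limma, adjusted p = 0.0497), the only one of the 8 genes for which it passed. This call stood at the threshold and was lost under 26 of 34 alternatives.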

How the results depend on the processing

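Over 35 alternatives, 23 of which leave out 1 array, 1338 of 1392 member values kept their side of the threshold without a called value turning round, though 79 values that passed in neither setting changed sign. Another 42 lost and 11 gained a call, and 1 uncalled value, that of Agr2 with TNBS in Wild Type, changed sign and passed. Retnlb kept both TNBS calls throughout (1.69 to 1.93 in FN14 KO, 1.62 to 1.93 in Wild Type), and its genotype call with TNBS (-0.89 to -0.74). The causes of the changes below were not tested unless named. Centring arrays on their medians shifts the 2623 genes at the lowest value by construction. It moved the median difference by 0.17 with TNBS in Wild Type, gave 11471 calls there in place of 2998 (11.2% higher, against 62%), 6 called members in place of 3, and turned Agr2 to -0.15 (adjusted p = 0.0194). For the difference of TNBS effects it gave 547 calls in place of 363 (80.6% higher, against 31.1%). The share of higher calls was 70.1% against 35.7% between genotypes with TNBS, and 33.7% against 60.4% without. Centring on the median of brighter genes, chosen after seeing the data, gave 41%, 62.6%, 54.8% and 47.5% in these comparisons, and 1 called member in place of 2 between genotypes with TNBS. With the epithelial and squamous covariates 854 and 648 genes passed with TNBS in FN14 KO in place of 1556, and 1334 and 1448 in Wild Type. Fitting only the groups compared gave 856 in FN14 KO, and without TNBS it gave 288 calls between genotypes in place of 879 and 0 called members in place of 1. The skeletal muscle covariate gave 87 calls and 0 members without TNBS, and 1 member in place of 2 with TNBS. The 1 member called for the difference of TNBS effects, Fcgbp, became 0 under both centrings, values below 5 set to 5, the mean of probe sets, the replicate block and the 3 covariates. Leaving out 1 array gave 1014 to 1835 calls with TNBS in FN14 KO (lowest without KO replicate 3), 458 to 1021 between genotypes without TNBS (458 without WT replicate 1, 484 without KO replicate 4), and 213 to 443 for the difference (213 without KO replicate 4, 238 without WT replicate 1). Called members were 1 to 3 between genotypes with TNBS and 0 to 1 for the difference. Replicate numbers did not pair the arrays: same-numbered deviations had r from -0.46 to 0.43. With the replicate block 1230 genes passed between genotypes with TNBS in place of 1902, and 172 for the difference.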
